A study of Mus musculus with 6 samples.

Results

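The genes studied mark tissue-resident or alternatively activated macrophages. They are Lyve1, Timd4, Folr2, Cd163, F13a1, Cbr2, Mrc1, Retnla and Arg1, and were read from the count table by their Ensembl identifiers. All 9 were among the 38293 genes of the table, and 8 of them passed the filter on low counts. The genes were chosen by their names as markers and by a low p of Retnla between the genotypes in these same libraries, so every genotype difference of these genes is given as a description. The libraries came from heart tissue of 3 WT and 3 Zeb2 cKO mice, taken 14 days after permanent occlusion of the LAD artery in backcrossed C57BL/6J mice. All 6 mice carried the infarct. According to the study's methods they were adults and the WT animals were Zeb2 fl/fl mice, so both groups hold floxed Zeb2 alleles. Zeb2 cKO mice carry in addition a Cre recombinase under the Myh6 (αMHC) promoter, which deletes Zeb2 in cardiomyocytes and leaves it in macrophages. Each group is 1 library per mouse. The labels place the tissue at the infarct border, whereas the methods name the remote zone.

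The adult heart holds macrophages that were seeded before birth and renew themselves locally, and after an infarct it also receives large numbers of monocytes that become macrophages on site. Resident cells are recognised by genes such as Lyve1, Timd4 and Folr2, which recruited cells lack at first. Interleukin-4 and interleukin-13, acting through the Il4ra receptor chain and the transcription factor STAT6, induce another program, named alternative activation, whose classic mouse genes are Arg1, Retnla and Mrc1. Several markers are used for both states, and none is exclusive to macrophages in a whole heart.

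Depth was between 37288174 and 51136331 counts per library, of which 14301225 to 19024394 lay outside the mitochondrially encoded genes. The 9 markers together held 4054 to 7532 counts per library. Values are given as CPM, counts scaled to a common library size after TMM normalization. Zeb2 itself was at 61.3, 116.05 and 71.9 CPM in WT replicates 1, 2 and 3, against 59.6, 72.6 and 66.5 CPM in Zeb2 cKO, and the groups overlapped. Defining cardiomyocyte genes (Myh6, Tnnt2 and 7 others) summed to between 35535 and 68147 CPM, so the defining genes of heart muscle were present throughout. WT replicate 2 stood apart from the other 5 libraries. Its summed fibroblast genes were at 10551 CPM against 1846 to 2562 CPM elsewhere, its 20 pan-macrophage genes at 1175 against 259 to 360 CPM, and its cardiomyocyte genes at the lowest sum of the series. Fold changes that this library moved are therefore given with and without it. In whole tissue, fewer cells of a type and less RNA per cell cannot be told apart.

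Levels were compared between genes as CPM per kilobase of annotated exon, averaged over the 6 libraries. Mrc1 was the highest at 8.65, followed by F13a1 at 6.71, Cbr2 at 5.05, Lyve1 at 3.88 and Folr2 at 3.09 CPM per kilobase. Lower came Retnla at 1.44, Cd163 at 1.11, Timd4 at 0.516 and Arg1 at 0.0676 CPM per kilobase. The ranges of neighbours in this order overlapped in every pair except the last, since Timd4 (0.199 to 0.753) lay above Arg1 (0.00835 to 0.102) throughout. Within single libraries F13a1 exceeded Cbr2, Folr2 exceeded Retnla and Cd163 exceeded Timd4 in 6 of 6, whereas Mrc1 exceeded F13a1 in 4 of 6.

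**Figure D1:**
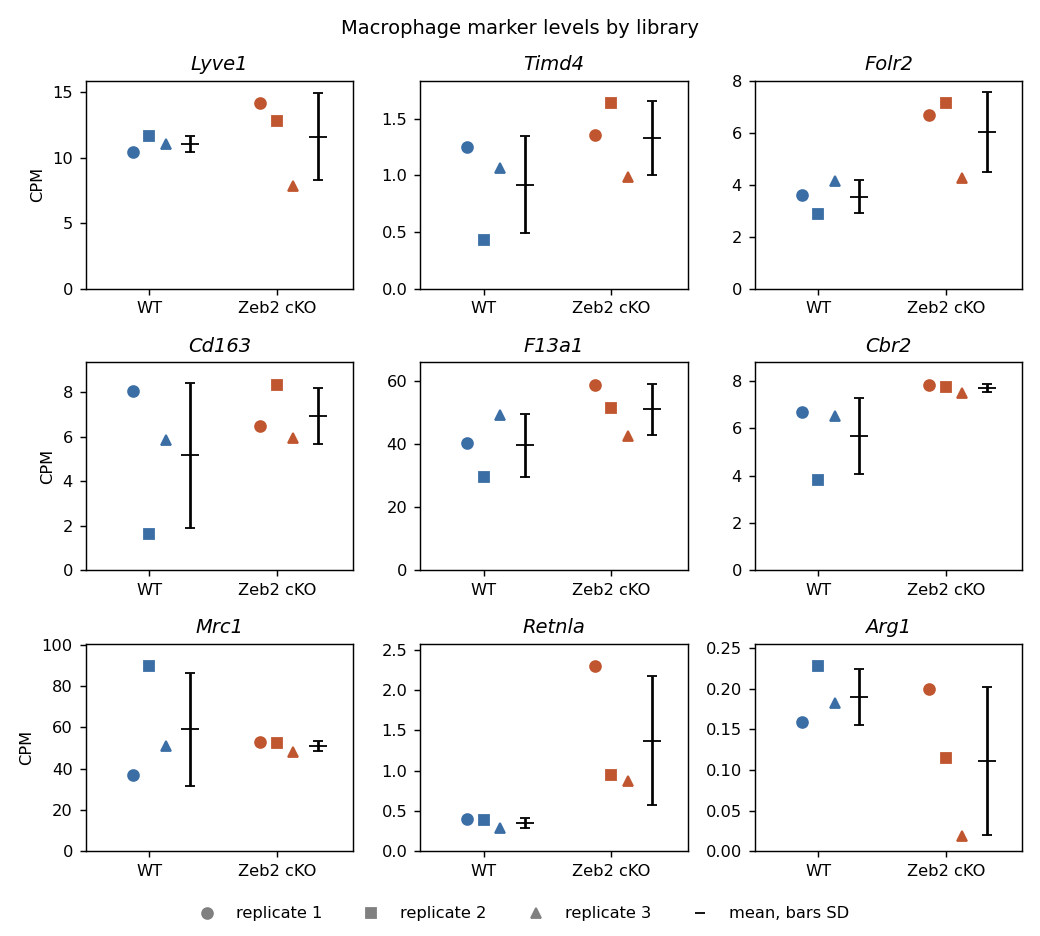
CPM (y axis, linear, from 0) of the 9 marker genes in WT and Zeb2 cKO hearts, with 1 symbol per library (circle, square and triangle for replicates 1, 2 and 3) and the group mean with SD in black. WT replicate 2, the blue square, is the lowest library for Timd4, Folr2, Cd163, F13a1 and Cbr2 and the highest for Mrc1, and Retnla is higher in each Zeb2 cKO library than in any WT library.

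Among the resident markers, Lyve1, a hyaluronan receptor of perivascular macrophages and of lymphatic vessels (ENSMUSG00000030787, GRCm38 chromosome 7, minus strand, 110850607 to 110863239), was at 10.5, 11.6 and 11.04 CPM in WT, against 14.1, 12.8 and 7.87 CPM in Zeb2 cKO, in the order of the replicates. The highest and the lowest of the 6 values were both Zeb2 cKO, so the groups overlapped, with a log2 fold change of 0.07 ± 0.22 (SE) between Zeb2 cKO and WT.

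Timd4, a phosphatidylserine receptor for the uptake of dying cells (ENSMUSG00000055546, chromosome 11, plus strand, 46810800 to 46844332), was at 1.25, 0.433 and 1.07 CPM in WT, against 1.36, 1.64 and 0.986 CPM in Zeb2 cKO. WT replicate 2 held 19 counts against 41 to 71 in the others. Its exact 95% Poisson interval, 11.4 to 29.7 counts, covers counting error only. The groups overlapped, and the log2 fold change was 0.54 ± 0.41 (SE).

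Folr2, the folate receptor beta of resident macrophages (ENSMUSG00000032725, chromosome 7, minus strand, 101839988 to 101857194), was at 3.61, 2.87 and 4.14 CPM in WT, against 6.67, 7.14 and 4.26 CPM in Zeb2 cKO. Every Zeb2 cKO library lay above every WT library, although Zeb2 cKO replicate 3 exceeded the highest WT library by little. The group means were 3.54 ± 0.638 and 6.03 ± 1.55 CPM (SD, n = 3 each), and the log2 fold change was 0.77 ± 0.24 (SE). An annotated antisense gene, Gm10602, overlaps 975 exonic bases of Folr2. It held 2, 3 and 2 counts in the WT and 6, 9 and 11 in the Zeb2 cKO libraries, against 126 to 334 counts for Folr2. Libraries were strand-specific, but the strand setting of the counting is not given in the sources used here.

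Cd163, the scavenger receptor that clears haptoglobin-haemoglobin complexes (ENSMUSG00000008845, chromosome 6, plus strand, 124304656 to 124330527), was at 8.04, 1.62 and 5.83 CPM in WT, against 6.47, 8.34 and 5.94 CPM in Zeb2 cKO. It had the widest spread of the resident markers, 5.16-fold from the lowest to the highest library, and the lowest value was again WT replicate 2. Its log2 fold change was 0.42 ± 0.51 (SE), with overlapping groups.

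F13a1, the A subunit of coagulation factor XIII that crosslinks fibrin and is carried by macrophages, monocytes and platelets (ENSMUSG00000039109, chromosome 13, minus strand, 36867178 to 37050244), was at 40.2, 29.3 and 49.1 CPM in WT, against 58.8, 51.4 and 42.6 CPM in Zeb2 cKO. The groups overlapped, since WT replicate 3 exceeded Zeb2 cKO replicate 3, and the log2 fold change was 0.36 ± 0.22 (SE). Cbr2, a carbonyl reductase that marks resident macrophages (ENSMUSG00000025150, chromosome 11, minus strand, 120729489 to 120732114), was at 6.69, 3.83 and 6.54 CPM in WT, against 7.85, 7.74 and 7.52 CPM in Zeb2 cKO. The Zeb2 cKO libraries were close to each other and all above the WT libraries. The log2 fold change of Cbr2 was 0.44 ± 0.22 (SE).

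Among the genes of alternative activation, Mrc1, the mannose receptor CD206 (ENSMUSG00000026712, chromosome 2, plus strand, 14229392 to 14332057), was at 36.9, 89.7 and 50.9 CPM in WT, against 52.8, 52.2 and 48.3 CPM in Zeb2 cKO. It was the only tested marker with its highest value in WT replicate 2, and the WT libraries spanned both sides of the Zeb2 cKO values. The log2 fold change was -0.21 ± 0.31 (SE) with all libraries and 0.22 ± 0.14 (SE) without WT replicate 2.

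Retnla encodes RELM alpha (also named FIZZ1), a small secreted protein that macrophages make in response to interleukin-4, and it is also known from adipose tissue. The gene (ENSMUSG00000061100) lies on chromosome 16, plus strand, from 48842551 to 48844461. Counts were 15, 17 and 11 in the WT libraries and 115, 41 and 47 in the Zeb2 cKO libraries. In CPM these were 0.398, 0.387 and 0.286 against 2.30, 0.945 and 0.875. The WT libraries lay close together, the Zeb2 cKO libraries were all higher, and Zeb2 cKO replicate 1 was well above the rest. By counting error alone the closest libraries were not fully separated, since the exact 95% Poisson interval of WT replicate 1 reached up to 0.657 CPM and that of Zeb2 cKO replicate 3 down to 0.643 CPM. The means were 0.357 ± 0.0616 and 1.37 ± 0.802 CPM (SD, n = 3 each).

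The log2 fold change of Retnla was 1.93 ± 0.46 (SE), a 3.82-fold higher level in Zeb2 cKO hearts. Its unadjusted p in edgeR's quasi-likelihood test, 0.00395, comes from the contrast that the choice of genes used, and its adjusted p was 0.957. Without Zeb2 cKO replicate 1 the log2 fold change was 1.34, and without any other single library it was between 1.80 and 2.17.

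The nearest relative of Retnla, Retnlg of neutrophils, lies on the same chromosome and shares 83.48% of 351 aligned coding positions with it. The stretch of 75 bases, the read length, in which the coding sequences are most alike is printed below to show how far single reads can separate them. Capitals mark the positions that differ, and each stretch is read from Gencode M21 transcripts on the plus strand of GRCm38, the first within chr16:48842811-48842885 and the second within chr16:48872874-48872948.
Retnla: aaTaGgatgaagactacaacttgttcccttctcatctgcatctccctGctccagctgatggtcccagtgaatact
Retnlg: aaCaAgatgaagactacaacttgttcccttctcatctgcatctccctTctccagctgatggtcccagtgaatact
This stretch has 3 mismatches, and no run of 75 bases was the same in both transcripts (0 shared). Retnlg held 1, 5 and 0 counts in the WT and 2, 0 and 5 counts in the Zeb2 cKO libraries. It was below Retnla in every library, though in WT replicate 2 the counts were 5 against 17. Retnlb held at most 1 count.

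Arg1, arginase 1 (ENSMUSG00000019987, chromosome 10, minus strand, 24915221 to 24927484), which splits arginine into ornithine and urea, was close to absent. It held 6, 10 and 7 counts in the WT and 10, 5 and 1 counts in the Zeb2 cKO libraries, or 0.0186 to 0.228 CPM. It did not pass the filter for low counts. Its exact 95% Poisson intervals overlapped between libraries except for WT replicate 2 (0.109 to 0.419 CPM) and Zeb2 cKO replicate 3 (0.000471 to 0.104 CPM). The groups overlapped, and so few counts do not resolve a group difference of Arg1. Its relative Arg2 held at most 2 counts in a library.

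Set against each other, 7 of the 8 tested markers had a log2 fold change above 0 between Zeb2 cKO and WT hearts, with a median of 0.43 beside a median of -0.0069 over all tested genes. All 20 pan-macrophage genes were below 0 in this contrast, with a median of -0.85, which was 0.014 without WT replicate 2. An unadjusted p under 0.05 in the higher direction was reached by 2 of the 8, Folr2 and Retnla, beside 1.04% of all tested genes. The contrast was known when the genes were chosen, so nothing is read from this count. Folr2 left it without Zeb2 cKO replicate 1 and without Zeb2 cKO replicate 2, which gave 1 of 8 each. In 3 of them, Folr2, Cbr2 and Retnla, the groups did not overlap, beside 3.39% of all tested genes in this direction. No marker was lower with an unadjusted p under 0.05 (0 of 8, beside 0.861% of all tested genes), and 0 of 8 were lower in every Zeb2 cKO library (beside 2.97%). Adjusted p-values of the 8 lay between 0.957 and 0.973 in the quasi-likelihood test of edgeR (Benjamini-Hochberg), and 0 of them were under 0.05, beside 0% of all 14746 tested genes.

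**Figure D2:**
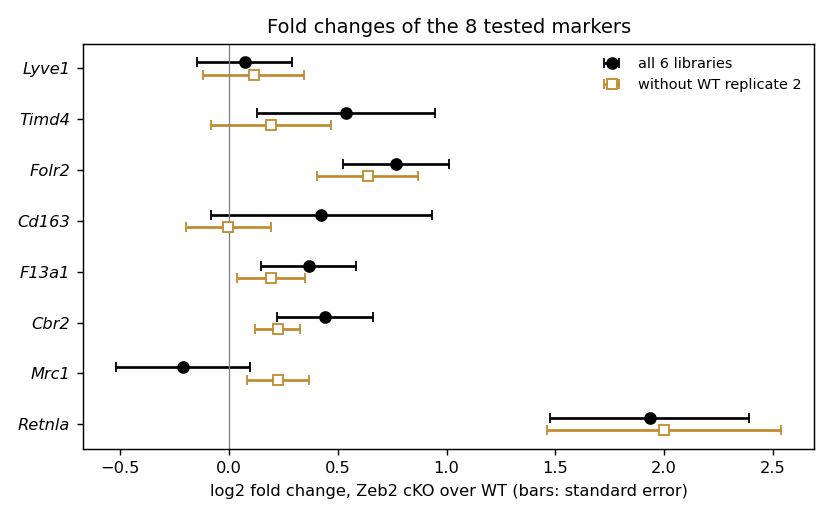
Log2 fold change between Zeb2 cKO and WT hearts (x axis) of the 8 tested markers, with bars of 1 standard error, from all 6 libraries (filled circles) and without WT replicate 2 (open squares). Retnla stays near 2 in both, Folr2 stays above 0.6, Cd163 moves from 0.42 to about 0 and Mrc1 moves from below to above 0.

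Leaving out WT replicate 2 brought most of these differences closer to 0. The median log2 fold change of the 8 markers became 0.21. Cd163 went from 0.42 to -0.0043, Timd4 from 0.54 to 0.19, F13a1 from 0.36 to 0.19 and Cbr2 from 0.44 to 0.22. Retnla was at 2.00 and Folr2 at 0.64 without this library. Folr2, Cbr2 and Retnla had groups that did not overlap there too, beside 8.07% of the tested genes, a larger share because only 2 WT libraries remain.

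In WT replicate 2 most general macrophage genes were highest, whereas 5 of the 8 tested markers were lowest. Of the 20 pan-macrophage genes (Adgre1, Csf1r, Lyz2, Cd68 and others) 19 had their highest value in this library, beside 1 of the 8 tested markers and 35.2% of all tested genes, and their median log2 difference between it and the mean of the other 5 libraries was 1.86. Adgre1, the F4/80 antigen, was 3.80-fold higher there, and Mpeg1, the pore-forming perforin-2, was 10.2-fold higher. The infiltrating monocyte marker Ccr2, a chemokine receptor, was 4.37-fold higher. In contrast, 5 of the 8 tested markers (Timd4, Folr2, Cd163, F13a1 and Cbr2) had their lowest value in WT replicate 2, where 34.6% of all tested genes did. Such a dip was not particular to these markers. Also lowest there were 8 of 9 cardiomyocyte genes (median log2 difference -0.82) and 6 of 8 endothelial genes (-0.69), beside -0.83 for the 8 markers. Cd163 was 4.15-fold lower there, Timd4 2.69-fold, Cbr2 1.88-fold, Folr2 1.72-fold and F13a1 1.63-fold. Lyve1 was 1.05-fold and Mrc1 1.88-fold higher than in the other libraries. These folds compare mean log2 CPM with a prior count of 2. They concern 1 library, so they have no replicate check.

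**Figure D3:**
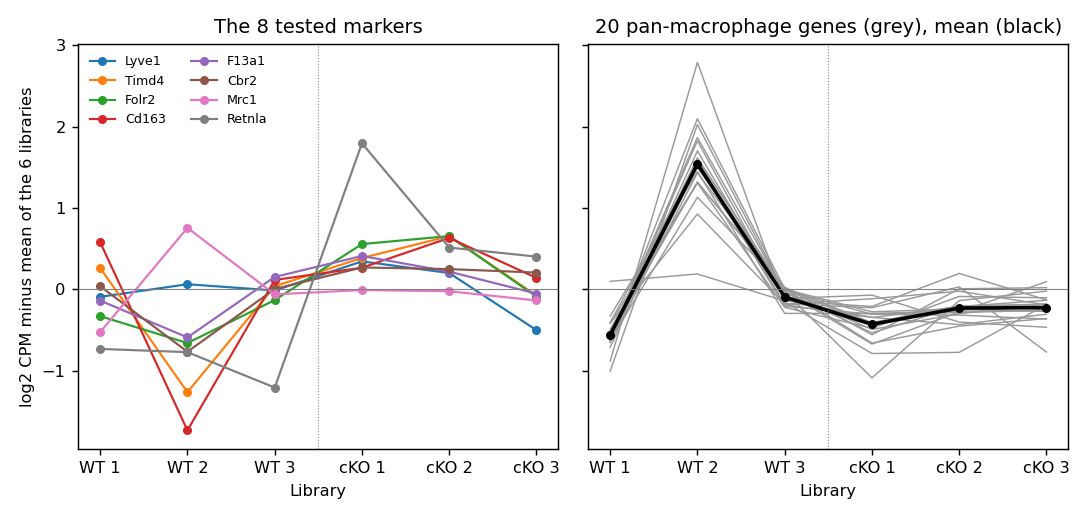
Log2 CPM in each library minus the mean of the 6 libraries (y axis) for the 8 tested markers (left) and for 20 pan-macrophage genes (right, grey, with their mean in black), with the dotted line between WT and Zeb2 cKO libraries. In WT 2 the pan-macrophage genes peak while Cd163, Timd4, Cbr2, Folr2 and F13a1 dip, and Mrc1 is high with the former.

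The markers were also read against the mean of the pan-macrophage genes in the same library. Since that mean is highest in WT replicate 2, this scale by its construction lowers other genes in that library and so in the WT group. Cd163 was 0.14, -4.23 and -0.78 above or below that mean in WT replicates 1, 2 and 3, on the log2 scale, and between -0.63 and -0.13 in the Zeb2 cKO libraries. F13a1 was at 2.46, -0.087 and 2.28 in the WT libraries and between 2.21 and 2.87 in the Zeb2 cKO libraries. On this scale the groups did not overlap for Mrc1 and Retnla, 2 of the 8. Of all tested genes 2.64% were likewise higher in each Zeb2 cKO library and 0.142% lower in each, so the scale is uneven between the directions and nothing is read from the count. For Mrc1 the difference was 0.47 and for Retnla 2.28, and without WT replicate 2 they were 0.21 and 1.72. The other 6 ranged from 0.62 for Lyve1 to 1.33 for Folr2 with all libraries and from -0.033 for Cd163 to 0.57 for Folr2 without that library.

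Further genes of the resident program were read from a list of 22, of which 17 were tested. None had an unadjusted p under 0.05 (0 lower and 0 higher). Their median log2 fold change was -0.17, and 11 were below and 6 above 0. Without WT replicate 2 the median was 0.067, with 3 below and 14 above 0 and again none with an unadjusted p under 0.05. The list was divided in WT replicate 2. Vsig4, a complement receptor of resident macrophages, Cd209f, a C-type lectin, the chemokine Ccl24, the lectin ficolin A (Fcna) and the neurturin receptor Gfra2 had their lowest value there, as the 5 markers did. Another 10 of the 17 had their highest value there, and the log2 difference from the other libraries was 2.16 for Fcrls and 1.52 for the growth factor Igf1.

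Upstream of alternative activation, the ligands Il4 and Il13 had 0 counts in all 6 libraries, which allows up to 3 counts in each, and Il10 had at most 2. Il33, an alarmin that acts upstream of both, was at 76 to 505 counts, highest in WT replicate 2, with a log2 fold change of -0.68 ± 0.63 (SE). Its direction turned without that library, where all 3 Zeb2 cKO libraries (3.84, 3.41 and 2.85 CPM) lay above WT replicates 1 and 3 (2.02 and 2.63 CPM) and the log2 fold change was 0.54 ± 0.20 (SE). Of the receptors, Il4ra was at 19.1 ± 5.17 CPM (SD, n = 3) in WT and 15.4 ± 3.21 CPM (SD, n = 3) in Zeb2 cKO. The transcription factor Stat6 was at 36.4 ± 4.36 and 34.5 ± 0.575 CPM (SD, n = 3 each). The growth factor Csf1, which sustains macrophages, was at 28.9 ± 4.56 and 30.8 ± 2.22 CPM (SD, n = 3 each). Of the 12 tested genes of this list 0 had an unadjusted p under 0.05, and their median log2 fold change was -0.012. Without WT replicate 2 the median was 0.0032, and an unadjusted p under 0.05 was reached by Il33 in the higher direction (beside 1.55% of the genes then tested) and by the transcription factor Klf4 in the lower (beside 1.08%), with adjusted p-values near 1 in edgeR.

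Of 17 other genes of the interleukin-4 response 9 were tested, with a median log2 fold change of 0.057 and 6 above 0. An unadjusted p under 0.05 was reached by 0 in the higher and 2 in the lower direction (beside 1.04% and 0.861% of all tested genes). These were Il1rn, the interleukin-1 receptor antagonist, at a log2 fold change of -1.78 ± 0.61 (SE), and Mmp12, the macrophage elastase, at -2.60 ± 0.97 (SE). Both were highest in WT replicate 2, and without it their log2 fold changes were -0.9996 ± 0.48 (SE) and -0.82 ± 0.49 (SE), neither with an unadjusted p under 0.05. The C-type lectins Mgl2 and Clec10a, which mark alternatively activated cells, had log2 fold changes of 0.23 ± 0.24 (SE) and 0.32 ± 0.43 (SE). Clec10a was at 0.903, 2.53 and 0.937 CPM in WT, against 1.92, 2.10 and 1.49 CPM in Zeb2 cKO. WT replicate 2 held the highest of these values. Without WT replicate 2 every Zeb2 cKO library lay above WT for Clec10a, beside 8.07% of the genes then tested. The log2 fold change of Clec10a was then 0.99 ± 0.24 (SE). For Mgl2 it was 0.19 ± 0.25 (SE), with overlapping groups. Clec10a then was the 1 gene of the list with an unadjusted p under 0.05 in the higher direction (0.00382, adjusted p 0.9997 in edgeR), beside 1.55%. In the lower direction there were 0, beside 1.08%. The median of the list without that library was -0.11. Chil3, a chitinase-like protein often measured beside Retnla and Arg1, held 1 to 6 counts per library, and Chil4 held 0.

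Relatives by gene family were mostly near the limit of detection. Retn, Retnlb, Arg2, Folr1 and F13b held at most 3 counts in any library, and Havcr1 and Timd2 held 0. Of the 6 tested relatives 1 had an unadjusted p under 0.05, beside 0.861% of all tested genes in the lower direction. This was Cbr3, another carbonyl reductase, at a log2 fold change of -1.02 ± 0.38 (SE), opposite in sign to Cbr2. It was at 0.903, 2.19 and 1.02 CPM in WT, against 0.719, 0.714 and 0.596 CPM in Zeb2 cKO, and without WT replicate 2 the log2 fold change was -0.50 ± 0.25 (SE), with no unadjusted p under 0.05. Mrc2, a collagen-binding receptor of the same family as Mrc1, was at 37.4 ± 21.2 CPM (SD, n = 3) in WT and 23.1 ± 6.06 CPM (SD, n = 3) in Zeb2 cKO, with overlapping groups. Its log2 fold change was -0.70 ± 0.39 (SE) with all libraries and -0.12 ± 0.20 (SE) without WT replicate 2.

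Since Lyve1 is also a lymphatic gene, 6 lymphatic endothelial genes were read beside it. Their sum was 98.9, 142.8 and 98.5 CPM in the WT and 110.6, 96.7 and 87.6 CPM in the Zeb2 cKO libraries. Of this sum Prox1, which cardiomyocytes also express, held 58.0, 41.1 and 55.5 CPM in WT, against 67.2, 55.9 and 53.7 CPM in Zeb2 cKO. Prox1 was lowest in WT replicate 2 and the other 5 were highest there, so the sum understates their excess in that library. The log2 fold change of Ccl21a, a lymphatic chemokine, was -1.44 ± 0.63 (SE) and that of Prox1 was 0.19 ± 0.17 (SE). Without WT replicate 2 they were -0.37 ± 0.28 (SE) and 0.057 ± 0.12 (SE). The highest library of Lyve1 was Zeb2 cKO replicate 1, not WT replicate 2. The part of lymphatic vessels in the level of Lyve1 was not tested.

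Other blood cells were scarce. The eosinophil genes Epx, Ear1 and Ear6 had 0 counts, and the sum of the 7 eosinophil genes was at most 0.115 CPM in any library. The 9 neutrophil genes summed to between 1.52 and 5.22 CPM and the 7 lymphocyte genes to between 1.08 and 3.37 CPM. The 8 monocyte genes summed to 38.3 CPM in WT replicate 2 and to between 6.96 and 11.2 CPM in the other libraries. In each of these lists the summed levels of the groups overlapped.

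Adipose tissue is another known source of Retnla, and 10 adipocyte genes were read beside it. Their sum was 9.69, 5.63 and 10.8 CPM in WT, against 15.5, 10.1 and 14.5 CPM in Zeb2 cKO. The groups overlapped in this sum, most of which came from Cidea, a lipid droplet protein at 5.15 to 13.1 CPM. Without Cidea, a choice made after the values were seen, the other 9 summed to 1.06, 0.479 and 1.07 CPM in WT, against 3.70, 1.54 and 1.40 CPM in Zeb2 cKO. Zeb2 cKO replicate 1 was highest in Retnla and in both sums.

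Gene by gene the adipocyte list was mixed. In 4 of the 10 (Adipoq, Plin1, Cidec and Adig) every Zeb2 cKO library lay above every WT library, and in the other 6 the groups overlapped. Adipoq, Plin1 and Cidec did not pass the filter on low counts. Of all tested genes 3.39% were likewise higher in every Zeb2 cKO library. The hormone adiponectin (Adipoq) held 3, 2 and 5 counts in the WT and 25, 8 and 9 in the Zeb2 cKO libraries. The adipokine adipsin (Cfd) overlapped, with 0.292, 0.205 and 0.651 CPM in WT, against 1.66, 0.576 and 0.540 CPM in Zeb2 cKO. Pck1, which serves glyceride synthesis in fat, held 17, 2 and 3 counts in the WT and 18, 6 and 8 in the Zeb2 cKO libraries. Lep and Ucp1, the defining hormone of white fat and the uncoupling protein of brown fat, held at most 1 count. Of the 3 tested genes of the list, Adig alone reached an unadjusted p under 0.05, its log2 fold change being 1.83 ± 0.40 (SE). The share of all tested genes that did so in the higher direction was 1.04%. The part of adipose tissue in the Retnla difference was not tested.

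Genes of the mesothelium, which covers the heart, summed to 6.90, 10.6 and 4.71 CPM in WT, against 6.95, 9.86 and 7.02 CPM in Zeb2 cKO. Their median log2 fold change was 0.052 with all libraries and 1.10 without WT replicate 2. Without that library 4 of the 6 tested were higher in every Zeb2 cKO library, beside 8.07% of the genes then tested. Of the list, Msln and Krt19 then had an unadjusted p under 0.05 in the higher direction, beside 1.55%. The adjusted p of both was 0.9997 in edgeR. The part of the mesothelium in the Retnla difference was not tested.

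**Figure D4:**
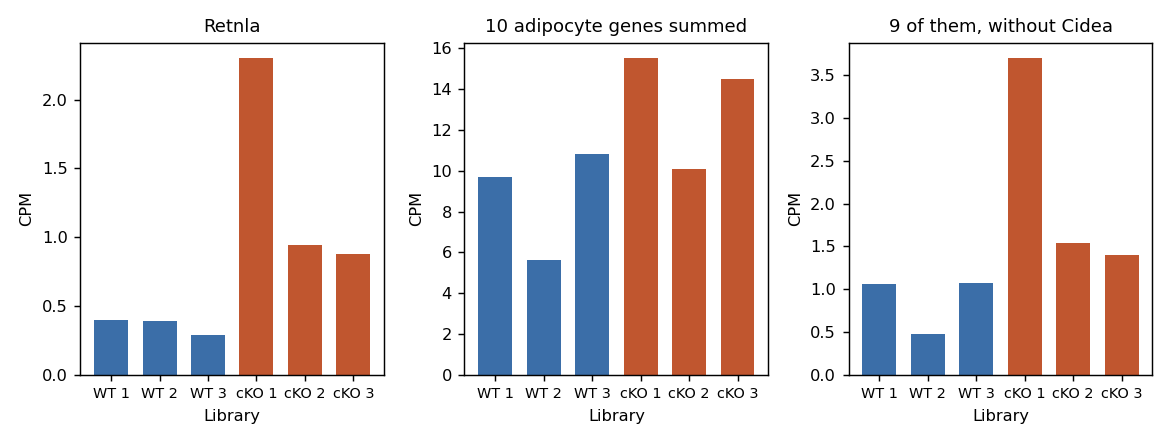
CPM (y axes, linear, from 0, each panel on its own scale) of Retnla (left), of 10 adipocyte genes summed (middle) and of 9 of them without Cidea (right) in each of the 6 libraries, WT in blue and Zeb2 cKO in red. Zeb2 cKO replicate 1 is highest in each panel, the 10-gene sum overlaps between the groups (10.8 CPM in WT replicate 3 and 10.1 CPM in Zeb2 cKO replicate 2), and the 9-gene sum does not.

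Across the 6 libraries the markers did not form a single pattern. Correlations are Pearson's r of log2 CPM, given as a description, since the 6 points share the genotypes and the outlying WT library. Cd163 and Timd4 went together at r = 0.97 (0.79 without WT replicate 2), and Cd163 and Mrc1 went apart at r = -0.91 (-0.41 without it). With the mean of the pan-macrophage genes r was 0.93 for Mrc1, -0.97 for Cd163 and -0.38 for Retnla. Without WT replicate 2 these became 0.68, -0.52 and -0.25. Folr2 and F13a1 were at r = 0.88 with and 0.83 without that library.

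The tested genes whose pattern was most like Retnla over the 6 libraries were Brinp1 (r = 0.99), Lamtor4 (0.98), Mrap2 (0.98) and Rbm8a (0.98). Brinp1 held 3, 4 and 2 counts in the WT and 31, 13 and 16 in the Zeb2 cKO libraries, and Mrap2 held 0 in the WT and 43, 10 and 14 in the Zeb2 cKO libraries. With so few libraries, 78 genes reached an r above 0.9 with Retnla and 784 with the mean of the other 7 tested markers.

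Promoters of 300 bases, from 250 before to 50 after the start, were taken from RefSeq for GRCm38.p6, where 7 of the 9 genes matched with 9 promoters. Lyve1 and Arg1 were not among them. The upstream sequence of Retnla is printed because it is the marker with the largest difference and a known STAT6 target. It covers chr16:48842359-48842550 on the plus strand and ends at the base before the annotated gene. Capitals mark, in order, the PU.1 motif on the reverse strand and the STAT6 motif.
Retnla: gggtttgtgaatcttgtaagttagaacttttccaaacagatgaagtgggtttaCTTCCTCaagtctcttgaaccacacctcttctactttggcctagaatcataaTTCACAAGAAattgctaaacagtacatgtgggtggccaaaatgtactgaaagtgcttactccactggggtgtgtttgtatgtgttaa
The STAT6 motif, TTC and GAA separated by 4 bases of any kind, was searched on both strands and found in 2 of the 9 promoters, those of Retnla and Cbr2, beside 6.95% of all 32851 promoters. In Cbr2 it lies 24 bases after the start, within chr11:120731980-120732005 on the minus strand.
Cbr2: tctcttgcTTCGGAAGAAgctggtgt
The PU.1 motif GAGGAAG, read by the lineage factor of macrophages, was in 5 of the 9 promoters (Mrc1, Cbr2, Retnla and both of F13a1) beside 13.6% of all. All motifs were searched on both strands. The MAF motif TGCTGAC was in 3 (Timd4, Cbr2 and Retnla) beside 4.67%. The C/EBP motif TTNCGNAA was in 0 beside 2.47%, and the E-box CACCTG, bound by ZEB2, was in 1, a promoter of Folr2, beside 20.2%. The matches did not overlap each other. A match is a description of the letters in this window and not a measured site.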

How the data were processed

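RNA-seq of heart tissue from 3 WT and 3 Zeb2 cKO mice was analysed, and each library was placed by the title in its labels. The values are raw gene counts in 1 table that the authors deposited, made with the STAR workflow on Gencode M4 (GRCm38, mm10 per the labels) from stranded libraries without ribosomal RNA. The STAR version and the strand and multi-mapping settings are not given in the sources used here. The number of columns left unused was 0.

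Symbols, coordinates and exon lengths came from Gencode M21 of the same build. In edgeR 4.0.16 (R 4.3.3) the counts were given TMM factors, filtered with filterByExpr and tested with glmQLFit and glmQLFTest on genotype, with Benjamini-Hochberg adjustment over all 14746 genes kept. The prior count was 0.125 for fold changes and 2 for log2 CPM. The steps were tested on simulated data. BLAST 2.17.0 (Python 3.11.15) was used to look for other genes with at least 75 bases at 95% identity. None was found for 7 markers, and 66.4% of the longest Folr2 transcript matched Gm10602, whose exons overlap it on the other strand, and 1.73% of that of Cd163 matched other genes.

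The markers and gene lists were chosen with earlier results of these data known. Genes were named by a rule: the 9 markers, their relatives with counts, the 4 genes most like Retnla and the 4 most like the mean of the others (the latter are not reported here), and, from each list, the most abundant gene and that with the smallest p where a result turns on it. Other list genes named with values were chosen after these were seen. Of the listed genes, Ear11 had no match. Groups of 3 are given by mean and SD. An exact permutation test of 3 against 3 cannot give a two-sided p under 0.1 and was not run. Replicates are separate mice per the series' design. Same-numbered libraries did not deviate together (r of deviations 0.088, -0.14 and -0.087 for replicates 1, 2 and 3) and were treated as unpaired, with a block in 1 alternative. The alternatives covered normalization, mitochondrially encoded genes, the filter, DESeq2 1.42.0 in place of edgeR, robust dispersions, the replicate number, a pan-macrophage covariate, the prior count and leaving out each library.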

Additional observations from a re-analysis of the deposited data

How the results depend on the processing

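The number of markers with an adjusted p under 0.05 was 0 of 8 in all 13 alternatives, beside 2 with an unadjusted p under 0.05, and the number of lower markers with an unadjusted p under 0.05 was 0 in each. The number of higher ones was 2, and between 1 and 3 when 1 library was left out. It was 1 without Zeb2 cKO replicate 1 and 1 without Zeb2 cKO replicate 2, where Folr2 had an unadjusted p of 0.055 and 0.0604. The median log2 fold change of the 8 markers was 0.43, and between 0.21 (without WT replicate 2) and 0.68 (without WT replicate 1) when 1 library was left out. With the replicate number as a block (replicate block) it was 0.54, with 2 higher markers, and the block changed no other call. With the pan-macrophage mean as a covariate it was 0.23.

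Directions turned in 3 markers. When 1 library was left out, Cd163 lay between -0.0043 (without WT replicate 2) and 0.90 (without WT replicate 1). Lyve1 lay between -0.096 (without Zeb2 cKO replicate 1) and 0.29 (without Zeb2 cKO replicate 3), and was at -0.0031 without Zeb2 cKO replicate 2. Mrc1 lay between -0.46 (without WT replicate 1) and 0.22 (without WT replicate 2), and was at 0.22 with the pan-macrophage covariate. For the other listed genes a fit without WT replicate 2 was added after seeing the data. Among the 15 of them followed here, Il33 turned from -0.68 to 0.54 and Stat6 from -0.079 to 0.018. Genes outside these 15 turned too. Of the 17 tested resident program genes, 11 were below 0 with all libraries and 3 without that library. Of the 20 pan-macrophage genes, 20 were below 0 with all libraries and 9 without it. Retnla stayed between 1.34 and 2.17 and Folr2 between 0.63 and 0.96 over all 14 alternatives.

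Over all tested genes, 127 were lower and 153 higher with an unadjusted p under 0.05. Without a filter on low counts they were 326 and 274, and with DESeq2's Wald test 263 were lower. Leaving out 1 library gave 47 to 827 lower and 75 to 307 higher genes. The number with an adjusted p under 0.05 was 0 with edgeR in each alternative and 1 with DESeq2, Slc46a2 (log2 fold change 4.20). The cause of these changes was not tested. Without the filter, the log2 fold change of Arg1 was -0.76 ± 0.68 (SE) from 1 to 10 counts per library, and depth limits what can be said of it, of Timd4 and of Retnla in WT hearts.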
